A study of Mus musculus with 6 samples.

Results

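The interleukin genes were taken as every probe set whose platform gene symbol begins with Il followed by a digit. The rule found 79 of 25428 probe sets, each for a different gene, among 24704 named genes. By function, 37 of the 79 code for secreted ligands and 36 for receptor chains. Another 4 code for antagonists or binding proteins (Il1rn, Il1f5, Il18bp, Il22ra2). The last 2 fit neither group: Il4i1b, named after an amino acid oxidase, and Il1bos, a transcript antisense to Il1b.

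Interleukins are small secreted proteins through which immune, epithelial and stromal cells signal to each other. Most act through receptors built from a chain that binds the ligand and a chain shared between several cytokines, and pass the signal on through JAK kinases and STAT factors. The IL-1 and IL-17 families instead use adaptor proteins that lead to NF-kappaB. In the lung, IL-33 and IL-25 from barrier tissue alert type 2 immunity, IL-1 and IL-18 drive inflammation, and IL-17 acts on epithelium and stroma.

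RNA came from whole lungs of mice kept in hypoxia for 7 days and was measured on 6 single-colour Affymetrix arrays, 3 per group. The controls were labelled Nfat5fl/fl and had received the solvent miglyol. The knockouts were labelled Nfat5(EC)-/-, lacking the osmosensitive transcription factor NFAT5 in endothelial cells (EC) after tamoxifen, 1 mg daily for 5 days. Mice of both groups were 10 to 12 weeks old at that treatment and recovered for 2 to 3 weeks before use. Both groups therefore share the floxed allele and the hypoxia, but differ in the inducing drug and in the deletion together, and neither the driver of the recombinase nor the sex of each animal is given in the sources used here. The series design states 4 mice of both sexes per group and says that lungs with contaminating tissue or a weak expression response to hypoxia had been removed. Values are RMA log2 levels scaled to common quantiles. They carry no detection call, so the lower quartile of all values, 2.02, serves below as a mark of dim probe sets and not as a limit of detection.

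Nfat5 was measured at 6.65, 6.58 and 6.30 on the controls (replicates 1, 3 and 4) and at 4.46, 4.48 and 3.89 on the knockouts in the same order. The lung label held: the surfactant genes Sftpc and Sftpb stood at mean levels of 11.98 and 11.21, with no call between the groups. Xist set control replicate 1 apart, at 8.22, where the other 5 arrays gave 2.03 to 2.37. Across all named genes 6292 passed the threshold, an adjusted p under 0.05 in limma, Benjamini-Hochberg adjusted over 24704 genes. The count was 2882 with control replicate 3 left out and 3141 with control replicate 1 left out. No label says that the replicates of a group are separate litters or days, so p-values measure only the spread between these samples.

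Of the 37 ligands, 5 were higher in the knockout (Il25, Il17d, Il27, Il1f10 and Il17a) and 3 were lower (Il18, Il15 and Il33). Of the 36 receptor chains, 3 were higher (Il17rc, Il3ra and Il4ra) and 6 were lower (Il1r1, Il13ra1, Il18r1, Il6st, Il1rl2 and Il5ra). These splits depended on the fit: with the trend in gene length removed 3 ligands were higher and 3 lower, and 5 receptor chains higher and 5 lower. Without control replicate 1 the counts were 3 and 2 for ligands and 2 and 2 for receptor chains, without control replicate 3 they were 2 and 1, and 2 and 2, and without control replicate 4 they were 3 and 1, and 3 and 5. Without knockout replicate 3 they were 3 and 3, and 3 and 5. None of the 4 genes classed here as antagonists passed in the limma fit. Their log2 fold changes ran from −0.16 for Il18bp to 0.06 for Il1f5, and 0 of the 4 had groups that did not overlap. In all, 17 of 79 members passed (21.5%), against 25.5% of all named genes, so the interleukin genes as a group were not called more often than the rest of the array. Higher calls came to 8 members, against 12.5% of all genes, and lower calls to 9, against 13.0% of all genes. The groups did not overlap at 31 members (39.2%), against 41.9% of all genes. The median log2 fold change stood at 0.0063 over the members and 0.04 over all genes.

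The level of the probe sets set how many could be read. Of the 37 ligands only 7 lay above the median mean level of all genes, and 5 of these passed. Of the 30 ligands at or below it, 3 passed. Receptor chains were brighter: 19 of 36 lay above the median, with 8 calls, and 17 below it, with 1 call. Among all genes 43.2% passed above the median and 7.77% at or below it. In both groups 12 ligands and 3 receptor chains had means below 2.02. These dim ligands included the T cell cytokines Il2, Il4 and Il5, the immune regulator Il10 and the acute-phase inducer Il6, so a change in them may have been missed.

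**Figure D1:**
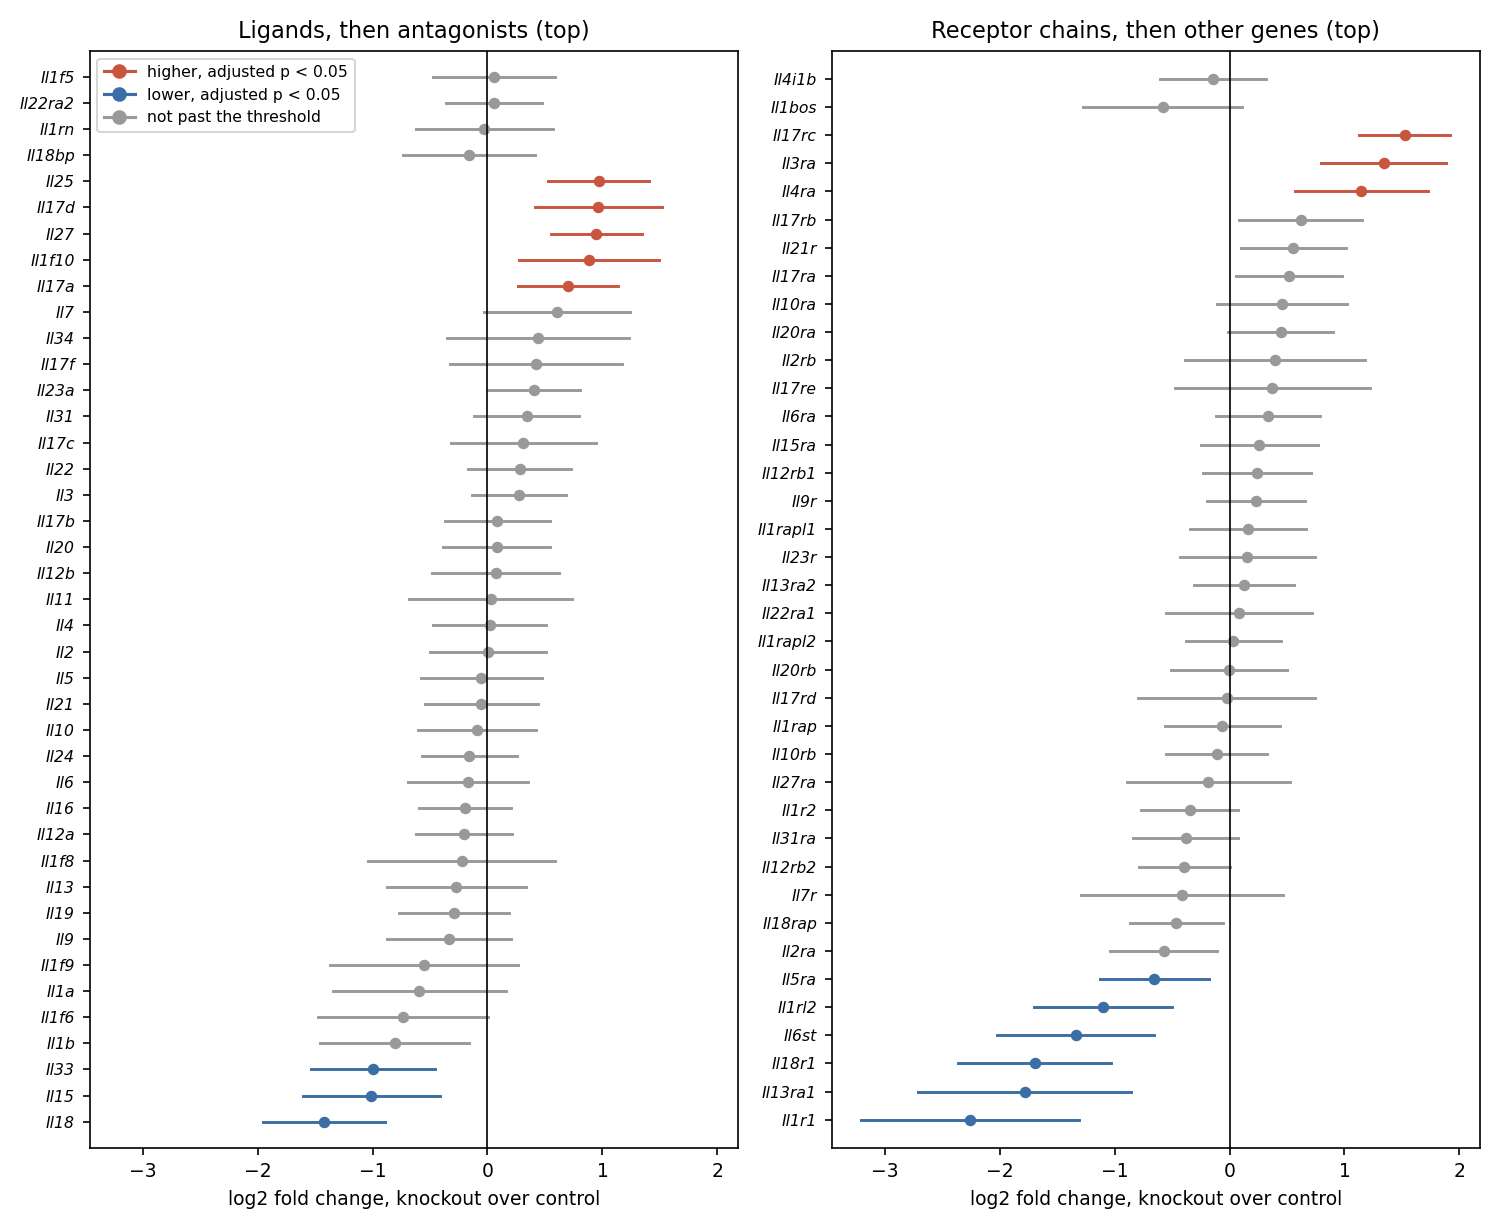
Log2 fold change of knockout over control for all 79 interleukin genes, ligands and antagonists on the left, receptor chains and other genes on the right. Points are limma estimates from 3 arrays per group and bars are their 95% confidence intervals; red marks the 8 higher and blue the 9 lower members past an adjusted p of 0.05, and grey the 62 that did not pass.

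The IL-1 family held most of the falls. Of its 19 measured members 5 were lower and 1 higher, 15 of 19 had a fold change below 0, and the family's median was −0.46. Of all named genes 13.0% were lower and 12.5% higher, and 46.5% had a fold change below 0. The receptor of IL-1 itself, Il1r1, which carries the inflammatory signal, had the lowest fold change of all members. It stood at 5.68, 5.74 and 5.75 on the controls (replicates 1, 3 and 4) and at 3.64, 4.36 and 2.40 on the knockouts in the same order. The controls lay within a narrow band and every knockout array lay at least 1 log2 unit lower, with knockout replicate 4 the lowest. Its log2 fold change came to −2.26 ± 0.42 (SE; 4.78-fold lower, limma adjusted p = 0.0061).

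IL-18, a cytokine that primes interferon production in T and NK cells, was lower together with its binding receptor chain. Il18 was measured at 4.39, 4.14 and 4.22 on the controls (replicates 1, 3 and 4) and at 2.38, 3.10 and 3.00 on the knockouts in the same order, a log2 fold change of −1.42 ± 0.23 (SE; limma adjusted p = 0.0041). Il18r1 was measured at 6.38, 6.49 and 6.33 on the controls and at 4.84, 5.25 and 4.04 on the knockouts, a log2 fold change of −1.69 ± 0.29 (SE; limma adjusted p = 0.0049). In neither gene did any knockout array reach the lowest control array. The accessory chain Il18rap was dimmer, at 2.45 ± 0.12 in the controls and 1.99 ± 0.05 in the knockouts (SD, n = 3 per group). Its groups did not overlap either, but it did not pass (limma adjusted p = 0.092). The secreted inhibitor Il18bp stood at 4.38 ± 0.38 and 4.22 ± 0.30 (SD, n = 3 per group), within the spread of the arrays, and the 95% interval of its log2 fold change ran from −0.73 to 0.42.

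Il33, an alarmin released by damaged barrier cells, was the brightest of the lower ligands. It stood at 6.91, 7.02 and 7.00 on the controls (replicates 1, 3 and 4) and at 5.50, 6.20 and 6.25 on the knockouts in the same order, so that knockout replicate 1 was the lowest and no array of one group entered the range of the other. This gave a log2 fold change of −0.99 ± 0.24 (SE; limma adjusted p = 0.016). Il1rl2, the receptor of the IL-36 cytokines, was measured at 4.18, 4.05 and 3.47 on the controls and at 3.22, 2.57 and 2.61 on the knockouts. Here control replicate 4 came close to the highest knockout array, and the log2 fold change came to −1.10 ± 0.27 (SE; limma adjusted p = 0.017). Il33 lost its call without control replicate 1 (adjusted p = 0.057), 3 (0.068) or 4 (0.053), and Il1rl2 without control replicate 1 (0.077) or 3 (0.075), at fold changes of the same sign.

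The remaining IL-1 ligands were dim and varied between arrays. Il1b, the main inflammasome product, stood at 2.56, 3.36 and 3.23 on the controls (replicates 1, 3 and 4) and at 1.79, 2.36 and 2.58 on the knockouts. Control replicate 1 lay just below knockout replicate 4, so the groups overlapped, and the log2 fold change of −0.81 ± 0.29 (SE) did not pass (limma adjusted p = 0.069; 0.020 with the trend in gene length removed). Il1a stood at −0.59 and the IL-36 ligands Il1f6, Il1f9 and Il1f8 at −0.73, −0.55 and −0.23 on the log2 fold change scale, each with overlapping groups. Il1f10, also called IL-38 and classed here as a ligand and not as an antagonist, was the 1 higher member. It was measured at 2.32, 2.18 and 3.07 on the controls and at 3.61, 3.47 and 3.14 on the knockouts, so control replicate 4 and knockout replicate 4 almost met. Its log2 fold change of 0.89 ± 0.27 (SE; limma adjusted p = 0.040) lost its call without control replicate 1 (0.14) or 3 (0.16) and without knockout replicate 1 (0.087) or 3 (0.087).

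Several of the IL-1 receptor genes lie side by side in one cluster in RefSeq's GRCm38.p6 gene order. All 5 of the cluster's members measured here had lower values in each knockout array than in each control array, against 20.0% of all genes, and 3 of the 5 passed. Along the cluster the log2 fold changes were −0.35 ± 0.19 for the decoy receptor Il1r2, −2.26 ± 0.42 for Il1r1, −1.10 ± 0.27 for Il1rl2, −1.69 ± 0.29 for Il18r1 and −0.46 ± 0.18 for Il18rap (SE). Of the 3 nearest named protein-coding genes on each side, none of the 6 passed in limma, and the groups did not overlap at 1 of them in the lower direction. Their median log2 fold change came to 0.16, against −1.10 inside the cluster. These neighbours were looked up after the receptors' values were seen. All but Map4k4 lay below the median level of all genes, with control means from 1.66 (Gm3646) to 2.70 (Slc9a4), so a fall in them could have been missed. Map4k4, the lower one without overlap, stood at 5.93 ± 0.10 and 5.38 ± 0.33 (SD, n = 3 per group). Its log2 fold change came to −0.56 (limma adjusted p = 0.095). Outside the cluster, the shared accessory chain Il1rap stood at −0.06 on the log2 fold change scale. Il1rapl1 and Il1rapl2 had means below 2.02 in both groups, so a fall in them could not be read. The type 2 cytokine cluster was looked up in the same way. Its 3 members Il4, Il13 and Il5 were dim and 0 of 3 passed in limma. Rad50, which lies between Il13 and Il5 but is not a member, was lower. Its log2 fold change came to −1.95 ± 0.25 (SE, limma adjusted p = 0.0022). Of the 6 flanking genes 2 passed, Sowaha higher and Kif3a lower.

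**Figure D2:**
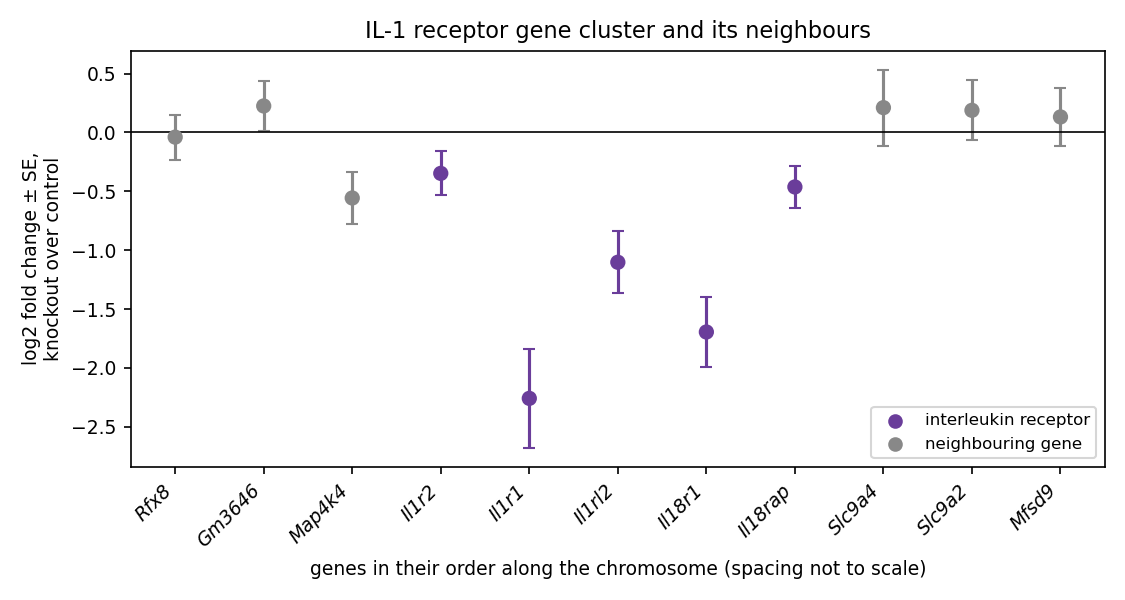
Log2 fold change (± SE, limma, 3 arrays per group) of the 5 IL-1 receptor genes of one cluster (purple) and of the 3 nearest named protein-coding genes on each side (grey), in chromosomal order. The receptors run from −0.35 to −2.26, while the neighbours have a median of 0.16. All neighbours but Map4k4 lay below the median level of all genes, so a fall in them could have been missed.

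The IL-17 family went the other way. Of its 11 measured members 4 were higher and 0 lower, 10 of 11 had a fold change above 0, and the family's median was 0.52. Of all named genes 12.5% were higher, and 53.5% had a fold change above 0. Il17rc, the chain that pairs with Il17ra to bind IL-17A and IL-17F, had the smallest adjusted p of all members. It stood at 4.91, 4.82 and 4.77 on the controls (replicates 1, 3 and 4) and at 6.40, 6.33 and 6.34 on the knockouts in the same order. Both groups were tight and lay far apart, with a log2 fold change of 1.52 ± 0.18 (SE; 2.87-fold higher, limma adjusted p = 0.0018).

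Among the IL-17 ligands, Il25, an inducer of type 2 responses, was measured at 2.70, 2.83 and 2.40 on the controls and at 3.69, 3.55 and 3.59 on the knockouts. Every knockout array lay above every control array, and the log2 fold change came to 0.97 ± 0.19 (SE; limma adjusted p = 0.0084). Il17d, a less studied ligand of the family, was measured at 3.63, 3.49 and 3.25 on the controls and at 4.88, 4.10 and 4.28 on the knockouts, a log2 fold change of 0.96 ± 0.24 (SE; limma adjusted p = 0.021). Knockout replicate 1 was the highest. The T cell cytokine Il17a was dim, at 2.30, 1.99 and 1.92 on the controls, 2 of which lay below 2.02, and at 2.68, 2.79 and 2.84 on the knockouts. Its log2 fold change came to 0.70 ± 0.19 (SE; limma adjusted p = 0.028). Il17d lost its call without control replicate 1 (0.054), 3 (0.072) or 4 (0.075), and Il17a without control replicate 3 (0.11) or 4 (0.096) and without knockout replicate 3 (0.056) or 4 (0.056).

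The other IL-17 receptor chains did not pass. Il17ra, the chain shared by the family, stood at 3.99, 4.34 and 4.39 on the controls and at 4.95, 4.59 and 4.74 on the knockouts. Its groups did not overlap, but the log2 fold change of 0.52 ± 0.20 (SE) missed the threshold (limma adjusted p = 0.095). Il17rb, the IL-25 receptor, stood at 1.70 ± 0.39 in the controls and 2.32 ± 0.16 in the knockouts (SD, n = 3 per group; limma adjusted p = 0.087). Il17re and Il17rd had fold changes of 0.37 and −0.02 on the log2 scale with overlapping groups. The ligands Il17f, Il17c and Il17b stood at 0.42, 0.31 and 0.08, also with overlap.

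**Figure D3:**
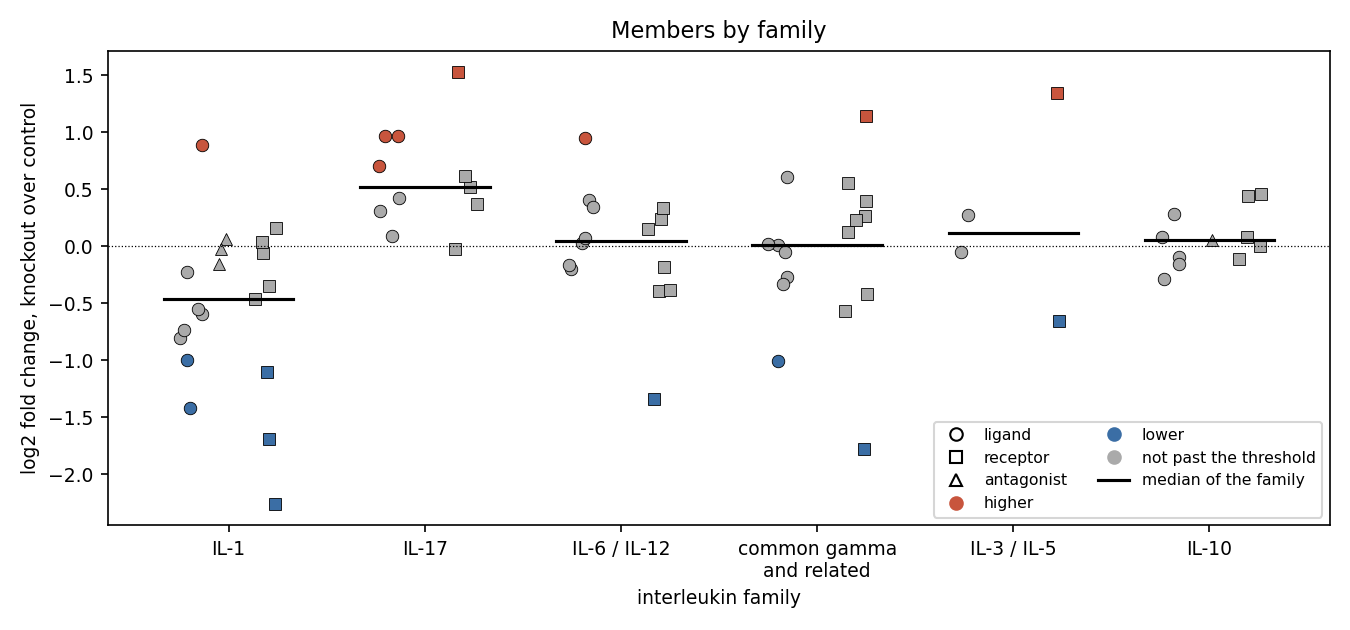
Log2 fold change of the members of 6 interleukin families, each point 1 gene (circles ligands, squares receptor chains, triangles antagonists), with the family's median as a line. The medians are −0.46 for the IL-1 family and 0.52 for the IL-17 family, and 0.05, 0.01, 0.11 and 0.06 for the IL-6 and IL-12, common gamma chain and related, IL-3 and IL-5, and IL-10 families.

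In the IL-6 and IL-12 family 1 of 14 members was higher and 1 lower, against 12.5% and 13.0% of all genes. The lower one was Il6st, gp130, the signalling chain shared by IL-6, IL-11, IL-27, LIF and oncostatin M, and the brightest member of all. It was measured at 7.78, 7.87 and 7.80 on the controls (replicates 1, 3 and 4) and at 6.84, 6.87 and 5.74 on the knockouts. The controls lay close together while knockout replicate 4 lay well below its group, and the log2 fold change came to −1.34 ± 0.30 (SE; limma adjusted p = 0.013). The call was lost without control replicate 1 (0.052) or 3 (0.057). The ligand-binding chain Il6ra stood at 4.91, 5.01 and 5.36 on the controls and at 5.55, 5.33 and 5.41 on the knockouts. Its groups overlapped through control replicate 4, and the 95% interval of its log2 fold change ran from −0.11 to 0.79 (limma adjusted p = 0.26). Il6 was dim in both groups, at 1.77 ± 0.30 and 1.60 ± 0.26 (SD, n = 3 per group).

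The higher member of that family was Il27, the gene of a subunit of IL-27, an immune regulator that signals through Il27ra and Il6st. It was measured at 3.50, 3.35 and 3.48 on the controls and at 4.44, 4.35 and 4.39 on the knockouts. Both groups were tight, with a log2 fold change of 0.95 ± 0.18 (SE; limma adjusted p = 0.0062). The receptor chain Il27ra stood at 3.41 ± 0.34 and 3.23 ± 0.59 (SD, n = 3 per group), within the spread of the arrays. Ebi3, the gene of the other subunit, was dim, at 2.49 ± 0.22 and 2.38 ± 0.04 (SD, n = 3 per group). It did not pass (limma adjusted p = 0.73). The IL-12 and IL-23 genes Il12a, Il12b, Il23a, Il12rb1, Il12rb2 and Il23r did not pass, at log2 fold changes from −0.40 for Il12rb2 to 0.40 for Il23a.

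The chains of the receptor for IL-4 and IL-13 moved in opposite directions. Il4ra and Il13ra1 together form the receptor through which IL-13, a driver of mucus and fibrosis in the lung, acts on tissue cells. Il4ra was measured at 4.90, 5.12 and 5.33 on the controls (replicates 1, 3 and 4) and at 5.95, 6.07 and 6.76 on the knockouts, a log2 fold change of 1.14 ± 0.26 (SE; limma adjusted p = 0.013). Il13ra1 was measured at 5.82, 5.99 and 5.68 on the controls and at 3.54, 5.15 and 3.46 on the knockouts, a log2 fold change of −1.78 ± 0.41 (SE; limma adjusted p = 0.014). Thus every knockout array was higher at one chain and lower at the other, with knockout replicate 3 nearest to the controls at Il13ra1. Il4ra lost its call without control replicate 1 (0.061) or 3 (0.054) and Il13ra1 without control replicate 1 (0.057) or 3 (0.063). Both ligands were dim: Il4 stood at 1.77 ± 0.23 and 1.79 ± 0.26 and Il13 at 2.40 ± 0.07 and 2.13 ± 0.53 in the controls and knockouts (SD, n = 3 per group). The decoy chain Il13ra2 lay below 2.02 on all arrays.

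Il15, a survival factor of NK and memory T cells, was the third lower ligand. It stood at 2.48, 3.26 and 3.31 on the controls and at 2.00, 2.24 and 1.78 on the knockouts, where 2 of the 3 values lay below 2.02. The size of the fall, −1.01 ± 0.26 (SE, log2; limma adjusted p = 0.023), is therefore uncertain. The call was lost without control replicate 3 (0.10) or 4 (0.084), without knockout replicate 4 (0.058) and with the trend in gene length removed (0.085). Its presenting chain Il15ra and the shared chain Il2rb stood at 0.26 and 0.40 on the log2 fold change scale, with overlapping groups.

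The IL-3 and IL-5 receptors, which bind their ligands through separate chains and signal through the shared chain Csf2rb, moved apart. Il3ra was measured at 3.52, 3.28 and 3.71 on the controls and at 4.63, 4.63 and 5.28 on the knockouts, a log2 fold change of 1.34 ± 0.24 (SE; limma adjusted p = 0.0054). All 3 knockout arrays lay above the controls, with replicate 4 the highest. Il5ra, found on eosinophils and some B cells, was dim, at 2.26, 2.54 and 2.03 on the controls and 1.45, 1.60 and 1.82 on the knockouts. Its log2 fold change of −0.65 ± 0.21 (SE; limma adjusted p = 0.049) lay at the threshold, and the call was lost without any 1 of control replicates 1 (0.13), 3 (0.19) and 4 (0.059) or of knockout replicates 1 (0.10) and 3 (0.094). Csf2rb, chosen after its values were seen, stood at 4.88, 4.44 and 4.57 on the controls and at 3.89, 3.25 and 3.80 on the knockouts, −0.98 ± 0.24 on the log2 fold change scale (SE; limma adjusted p = 0.016, and 0.075 without control replicate 1).

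In the IL-10 family 0 of 11 members passed in limma, against 25.5% of all genes. Only 3 of the 11 lay above the median level, and 7.77% of all genes at or below it passed. The family's log2 fold changes ran from −0.29 for Il19 to 0.46 for Il10ra. The groups did not overlap at 1 member, Il20ra, against 41.9% of all genes. Il10rb, the chain shared by IL-10, IL-22 and the type III interferons, was bright enough to read. It stood at 6.53, 6.51 and 6.53 on the controls and at 6.15, 6.55 and 6.54 on the knockouts, where only replicate 1 lay apart, and the 95% interval of its log2 fold change ran from −0.55 to 0.33. All 5 ligands of the family had means below 2.02 in both groups.

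**Figure D4:**
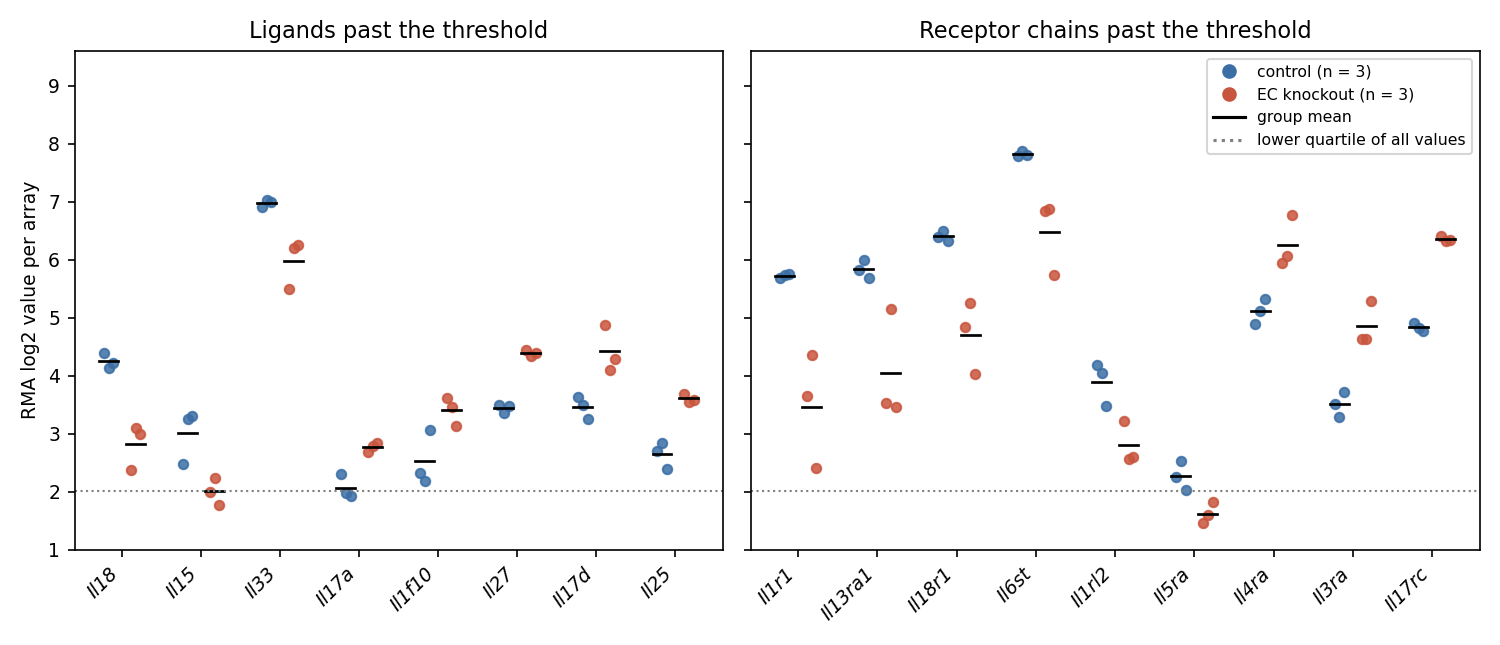
RMA log2 level on each array for the 8 ligands (left) and 9 receptor chains (right) past an adjusted p of 0.05, with control arrays in blue, knockout arrays in red, group means as black lines and the lower quartile of all values (2.02) dotted. The groups overlap at none of these 17 genes; the falls of Il1r1 and Il13ra1 come with wide knockout groups (SD 0.99 and 0.95), while Il17rc and Il27 are tight in both groups.

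Of the 17 members past the threshold, 7 kept their call in every alternative fit in which they were tested: Il17rc, Il3ra, Il25 and Il27, which rose, and Il18, Il18r1 and Il1r1, which fell. RefSeq's GRCm38.p6 promoter table held entries for 62 of the 79 members and for 5 of these 7. The 250 bases before the first start site that the table lists for each are shown, all on the + strand, because NFAT5 binds the tonicity-responsive enhancer and these members kept their call throughout. Capitals mark a match to that enhancer's consensus form on either strand. Il17rc lies at chr6:113471205-113471454, Il3ra at chr14:14346245-14346494, Il18 at chr9:50554450-50554699, Il18r1 at chr1:40465302-40465551 (the first of 3 starts listed) and Il1r1 at chr1:40224830-40225079 (the first of 2). The start sites of Il17rc, Il18 and Il18r1 are the first base of the RefSeq gene, but those used for Il3ra and Il1r1 lie 583 and 2600 bases inside it, so these 2 windows fall within the annotated gene.
Il17rc: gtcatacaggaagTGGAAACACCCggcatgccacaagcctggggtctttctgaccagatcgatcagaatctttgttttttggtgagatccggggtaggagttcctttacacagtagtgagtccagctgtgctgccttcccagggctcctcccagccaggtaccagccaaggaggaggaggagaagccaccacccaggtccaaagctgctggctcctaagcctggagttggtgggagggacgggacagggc
Il3ra: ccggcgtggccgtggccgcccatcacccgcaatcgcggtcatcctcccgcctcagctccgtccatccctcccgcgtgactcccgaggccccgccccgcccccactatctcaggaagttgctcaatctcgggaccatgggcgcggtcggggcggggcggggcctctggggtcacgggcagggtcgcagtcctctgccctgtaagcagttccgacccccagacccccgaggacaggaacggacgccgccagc
Il18: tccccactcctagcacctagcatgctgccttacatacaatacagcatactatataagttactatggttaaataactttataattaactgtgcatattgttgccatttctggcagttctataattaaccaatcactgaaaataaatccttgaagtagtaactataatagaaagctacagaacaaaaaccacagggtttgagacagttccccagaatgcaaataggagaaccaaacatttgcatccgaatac
Il18r1: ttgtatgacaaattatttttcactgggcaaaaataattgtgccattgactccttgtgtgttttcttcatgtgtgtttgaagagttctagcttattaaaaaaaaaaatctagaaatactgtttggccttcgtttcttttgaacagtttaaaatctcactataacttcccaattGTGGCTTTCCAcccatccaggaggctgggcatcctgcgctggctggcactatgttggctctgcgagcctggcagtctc
Il1r1: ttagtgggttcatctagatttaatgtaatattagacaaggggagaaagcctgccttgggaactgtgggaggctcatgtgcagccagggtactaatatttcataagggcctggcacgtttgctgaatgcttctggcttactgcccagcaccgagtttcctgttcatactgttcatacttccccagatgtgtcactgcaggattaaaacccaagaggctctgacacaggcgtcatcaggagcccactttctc
The higher Il17rc and the lower Il18r1 each held 1 match, starting 237 and 78 bases before the start. The form was found in 4.31% of all 32851 promoter windows of this length; counted by gene, in a window of 5.01% of 27025 genes and of 7 of the 62 members (11.3%). Its core TGGAAA, counted on both strands and contained in the longer form, was found in 18.6% of all windows, at 20.9% of all genes and at 22 of the 62 members (35.5%). Among the 14 members with an entry that had passed, 3 held the core (Il17d, Il17rc and Il18r1), against the same 20.9% of all genes. TTCNNNGAA, the form that STAT factors bind, was found in 7.02% of all windows, at 8.13% of all genes and at 9 of 62 members (14.5%). No test was made of these shares. A match is a run of letters and not a site of binding.

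Gene length moved with the direction of the calls. The 9 lower members spanned 27.1 kb (Il18) to 93.7 kb (Il1r1) in RefSeq, and the 8 higher members 2.97 kb (Il1f10) to 27.2 kb (Il4ra). Ligand genes were shorter than receptor genes, at medians of 6.60 and 35.8 kb. Across the members' 78 protein-coding genes the Spearman rho of fold change and length was −0.25, and across the array's 19686 it was −0.32. Taken apart, it was −0.36 for the 37 ligands and −0.50 for the 36 receptor chains. Genes on one array share its preparation and labelling. In the fourth of the array's 5 length bins (median 38.4 kb) 23.6% of genes were lower and 10.4% higher, and of the 21 members there 7 were lower and 1 higher. In the second bin (median 8.32 kb) 5.66% were lower and 20.7% higher, and of 24 members 0 were lower and 3 higher (limma). With the trend in length removed, 13 of the 17 members kept their call, and Il15 (adjusted p = 0.085), Il17a (0.19), Il1f10 (0.14) and Il5ra (0.13) did not, while Il1b, Il20ra and Il21r passed.

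**Figure D5:**
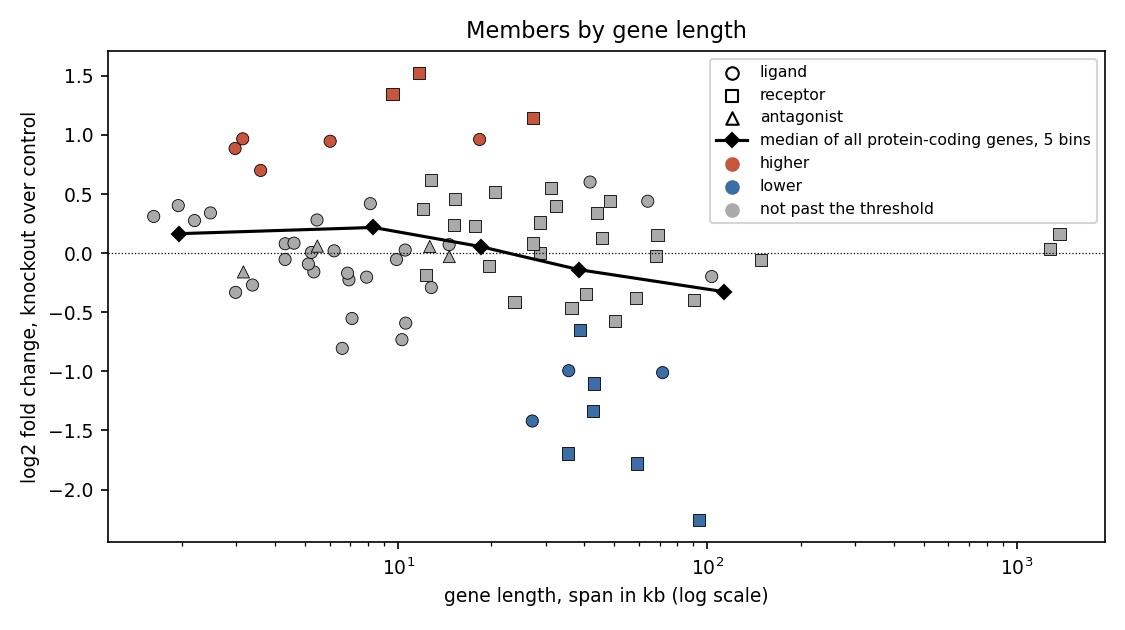
Log2 fold change of the protein-coding interleukin genes against gene length (RefSeq span, log axis), with circles for ligands, squares for receptor chains and triangles for antagonists, and the median of all protein-coding genes in 5 length bins as a black line. Lower members (blue) span 27.1 to 93.7 kb and higher members (red) 2.97 to 27.2 kb; the array's median runs from 0.17 (shortest bin) to −0.33 (longest).

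Signalling genes that the symbol rule leaves out moved in both directions. Of 69 measured genes of the JAK-STAT, NF-kappaB and partner-receptor list 13 were higher and 16 lower, or 42.0%, against 25.5% of all genes and 43.2% of genes above the median level, where most of this list lay. The groups did not overlap at 43 of the 69 (62.3%, against 41.9% of all genes), and the median log2 fold change came to 0.10. Length went with direction here too. The lower genes named next spanned 50.6 kb (Tab2) to 113.3 kb (Jak1) and the higher ones 4.26 kb (Socs3) to 14.2 kb (Jak3). With the trend in gene length removed, 13 of the 69 were higher and 15 lower. The part of length in the splits below was not tested. The calls of the signalling genes named next held in every alternative fit, other than those of Jak1 and Osmr.

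Among the kinases, Jak3, which serves the common gamma chain receptors, was higher and Jak2, which serves the IL-3, IL-5 and IL-12 receptors, was lower. Jak3 was measured at 4.01, 4.34 and 4.31 on the controls (replicates 1, 3 and 4) and at 5.64, 5.46 and 5.69 on the knockouts, a log2 fold change of 1.38 ± 0.19 (SE; limma adjusted p = 0.0026). Jak2 was measured at 6.40, 6.11 and 5.71 on the controls and at 4.80, 4.60 and 3.99 on the knockouts, −1.61 ± 0.27 (SE; limma adjusted p = 0.0044). The groups stood apart in both. Jak1, which joins gp130 and gamma chain receptors and was chosen after its values were seen, stood at −1.38 ± 0.30 (SE; limma adjusted p = 0.011, and 0.0501 without control replicate 1).

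Inhibitors of the pathway divided. Socs3, the feedback inhibitor of gp130, was measured at 3.81, 3.83 and 3.91 on the controls and at 5.03, 5.06 and 5.28 on the knockouts, a log2 fold change of 1.28 ± 0.18 (SE; limma adjusted p = 0.0028). The groups did not overlap. Of the PIAS family, SUMO ligases that restrain STATs, Pias4 was higher by 1.32 ± 0.24 while Pias1 and Pias2 had log2 fold changes of −1.97 ± 0.32 and −1.39 ± 0.25 (SE). Sigirr, a receptor that damps IL-1 and IL-33 signals, was higher by 1.25 ± 0.22 (SE). The adjusted p of these 4 genes in limma lay between 0.0041 and 0.0056.

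Of the receptors that work beside the members, some passed and some did not. Lifr, which pairs with gp130, was measured at 6.59, 6.53 and 6.65 on the controls and at 4.82, 5.47 and 4.21 on the knockouts, a log2 fold change of −1.75 ± 0.30 (SE; limma adjusted p = 0.0045). Osmr, the other partner of gp130, chosen after its values were seen, stood at −1.31 ± 0.33 (SE; limma adjusted p = 0.021). Its call was lost without control replicate 1 (0.077), 3 (0.081) or 4 (0.057). Crlf2, the receptor of the alarmin TSLP, which pairs with Il7r, was measured at 3.55, 4.03 and 3.97 on the controls and at 5.01, 5.17 and 5.16 on the knockouts, a log2 fold change of 1.26 ± 0.20 (SE; limma adjusted p = 0.0038). Csf2ra, Cntfr and Csf2rb2, named after their values were seen, missed the threshold, with 0.59, 0.69 and 0.04 as log2 fold changes. Il7r itself varied widely, at 3.45 ± 0.75 and 3.04 ± 0.52 (SD, n = 3 per group).

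In the branch from IL-1 and IL-17 receptors to NF-kappaB, the kinase Map3k7 was lower, at 4.31, 4.22 and 4.18 on the controls and 2.61, 2.87 and 2.17 on the knockouts, a log2 fold change of −1.69 ± 0.22 (SE; limma adjusted p = 0.0023). Its adaptor Tab2 stood at −1.19 ± 0.20 (SE; limma adjusted p = 0.0046). Nfkb2, a subunit of the non-canonical pathway, was higher, at 3.68, 4.00 and 3.88 on the controls and 5.63, 4.87 and 5.42 on the knockouts, a log2 fold change of 1.46 ± 0.24 (SE; limma adjusted p = 0.0040).

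In whole lung, fewer cells of a type and less RNA per cell cannot be told apart. The endothelial, alveolar macrophage and mast cell lists had lower summed levels on every knockout array than on every control array. Of all named genes 13.0% were lower and 12.5% higher, and these shares apply to every marker list below. Among genes above the median level 43.2% passed. Of 6 endothelial markers 4 were lower (Cdh5, Erg, Pecam1 and Tek) and 1 higher (Cldn5). Their summed level, as log2 of the summed unlogged values, was 11.3 to 11.7 in the controls and 9.75 to 10.5 in the knockouts. None of the 6 lay below 2.02 throughout. The 4 lower markers spanned 42.9 kb (Cdh5) to 227 kb (Erg) and the higher Cldn5 1.42 kb, in the direction of the array's trend with length. The part of length in these markers was not tested. Of 5 alveolar macrophage markers 1, Mrc1, was lower, with summed levels of 8.05 to 8.47 and 6.47 to 7.69. Chil3, the brightest of the list, weighed most in these sums. It ranged from 3.99 to 7.18 on the knockouts and did not pass (limma adjusted p = 0.089). Siglecf stood at −0.45 on the log2 fold change scale, while Marco and Itgax stood at 0.39 and 0.06. Of 6 mast cell markers 1, Cpa3, was lower, with summed levels of 6.70 to 7.33 and 6.005 to 6.50. Kit, by far the brightest of the list, weighed most in these sums and did not pass (limma adjusted p = 0.051). Tpsb2 went the other way at 0.66 on the log2 fold change scale (limma adjusted p = 0.073), and Mcpt4 stood at −0.02. The defining Cma1 and Ms4a2 lay below 2.02 on all arrays, so the list does not show a general fall. Of 5 alveolar type 2 markers 1, Lamp3, was lower, while Sftpc, Sftpb, Abca3 and Etv5 did not pass. The summed levels of this list overlapped, at 12.88 to 13.04 in the controls and 12.10 to 12.94 in the knockouts.

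Lymphoid and other myeloid lists had overlapping summed levels. T cell markers rose at 1 of 7 and fell at 1, with 6.01 to 6.70 in the controls and 6.29 to 6.63 in the knockouts, and B cell markers at 1 and 1 of 5, with 6.64 to 7.22 and 6.51 to 7.26. Of 4 markers of type 2 innate lymphoid cells 1 was higher (Gata3) and 1 lower (Rora), with 5.64 to 5.96 and 5.38 to 6.10; Il7r, itself a member, was among them. NK cell and neutrophil markers gave 0 calls of 5 and 6 in limma, with 5.51 to 5.61 and 5.05 to 6.41 for NK cells and 5.15 to 5.44 and 5.12 to 5.67 for neutrophils, where Ly6g lay below 2.02 throughout. Of the dendritic cell markers 1 of 6 rose (5.55 to 5.90 and 5.41 to 5.89), and of those of monocytes and interstitial macrophages 2 of 7 rose and 2 fell (7.79 to 7.95 and 7.80 to 8.30). Of 8 thymus markers 1 rose and 1 fell (5.23 to 5.72 and 5.26 to 5.63), with Cd1d1 below 2.02 throughout. The part of these cell types in the interleukin values was not tested.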

How the data were processed

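Levels in whole lung of 3 control and 3 knockout mice came from a table of log2 values per probe set that the authors deposited. Per the submitters' processing notes these were made with RMA, whose version and probe set definition the sources used here do not give. The columns share common quantiles. Symbols came from the platform annotation, which named 24705 of 25428 probe sets; 723 were unnamed here. The brighter probe set was kept for the 1 symbol with several. Gene lengths came from RefSeq (GRCm38.p6).

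Groups were compared by lmFit and eBayes (limma 3.58.1, R 4.3.3; tested on simulated data), with Benjamini-Hochberg adjustment over 24704 genes, no filter and a threshold of 0.05. The number of arrays limits the precision. The members, families, lists and tests were chosen with earlier results of these data known. Named were members past the threshold, unpassed members in the upper quartile of levels, Il6, Il1b, Il33 and Il6st, up to 6 signalling genes each way by p, and Nfat5. The 2 further genes of that rule, Il1rl1 and Il2rg, had no platform symbol and were not analysed here. Other genes are named as examples of their family. Alternatives covered filters, cyclic loess scaling, an intensity trend, array weights, a replicate block, removal of the length trend (lowess, span 0.3), averaged probe sets and leaving out each array.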

Additional observations from a re-analysis of the deposited data

How the results depend on the processing

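Ligands, receptor chains, all members, signalling genes and all genes passed at 8, 9, 17, 29 and 6292. Leaving out 1 array gave 3 to 7 ligands, 4 to 10 receptor chains, 7 to 17 members, 17 to 32 signalling genes and 2882 to 6155 genes in all. The lowest counts came without a control array: 7 members passed without control replicate 3, 9 without control replicate 1 and 12 without control replicate 4. A filter at the median level left 5 ligand calls of 7 tested. Every other setting kept each total within 1.5 times, but not each direction: higher ligands came to 3 in place of 5 with the replicate block, with the length trend removed and with the filter at the median level, and higher receptor chains to 5 in place of 3 with the length trend removed. No called member changed sign in any setting. Of those not called, Il10rb (−0.11 with all arrays) ranged from −0.1801 to 0.021 with 1 array left out, the highest without knockout replicate 1 (adjusted p = 0.95), and Il6 (−0.17) from −0.315 to 0.0037, the highest without control replicate 3 (0.99).

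Replicate numbers shared by the groups showed no pairing across the genes of the array as a whole. Correlations of same-numbered deviations were 0.06, −0.01 and 0.0038, and those of differently numbered ones ran from −0.11 to 0.11. Such values cannot exclude that same-numbered animals were paired. With the number as a replicate block, 7 ligands, 8 receptor chains, 15 members, 32 signalling genes and 6082 genes passed; Il17a (adjusted p = 0.051), Il1f10 (0.067) and Il5ra (0.077) did not, and Il1b did (0.028). Cyclic loess scaling moved the median of all genes by −0.03 and cost the call of Il1f10 (0.055). Of the ligands 12 of 37 had means below the lower quartile in both groups, against 3 of 36 receptor chains.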
